A study of Mus musculus with 9 samples.

Results

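Carbonic anhydrases interconvert carbon dioxide and bicarbonate and thereby set how fast a tissue can buffer and export acid. In the retina the cytosolic enzyme of Müller glia and the membrane-bound enzymes that face the extracellular space are known for clearing the carbon dioxide that photoreceptors release, and their inhibitors are used in patients to lower eye pressure and to dry retinal edema. Some relatives have lost the zinc-binding histidines and with them the enzyme activity, and Car9 is a textbook target of the hypoxia-inducible factors, transcription factors that are stabilized when oxygen is low.

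The expression of 10 genes of this family was followed: the cytosolic enzymes Car2 and Car3, the enzymes anchored to the cell surface Car4, Car9, Car12 and Car14, the secreted enzyme Car6, and the inactive relatives Car8, Car10 and Car11. They were found by their symbols in a count table of 48587 genes, and all 10 were listed. The other 8 genes of the family in the table are described after them.

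RNA came from whole retinas of C57BL/6J mice 12 weeks old, with 3 pools of 6 retinas in each of 3 groups. In RVO eyes all large veins were occluded by laser after injection of eosin Y, a dye that strengthens the laser effect. In the fellow eyes of these mice, called control, the same number of laser burns was set between the large vessels, and both were taken at day 2. Untreated eyes came from other mice without laser treatment. Each value thus belongs to a pool and not to a mouse, and RVO and control eyes shared the animals and the dye but not the vein occlusion. The paper reports that part of the occluded veins re-opened in the days after the laser.

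Total counts per pool were 21022997 to 28993921 in RVO eyes, 18897218 to 23419497 in control eyes and 12377572 to 15245869 in untreated eyes, so genes of low expression were measured least precisely in untreated eyes. Levels are given as CPM, the count relative to the pool's total after TMM scaling, in units of 1e6 counts, and as CPM per kb of exon wherever genes are compared with each other. Genes were called differentially expressed at a Benjamini-Hochberg adjusted p under 0.01 in edgeR's quasi-likelihood test over all tested genes. The verbs rose and fell are kept for such genes. The summed level of 7 Müller cell markers and of 8 rod markers was lower in every laser-treated pool than in every untreated pool, and among the RVO pools replicate 2 had the highest sum for the markers of Müller, bipolar, amacrine and ganglion cells. In whole retina, fewer cells of a type and less RNA per cell cannot be told apart.

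Because Car9 is a known hypoxia target, the stretch around its start is shown with that of the other family members that hold the same short motif. ACGTG is a core of the element that hypoxia-inducible factors bind, and GCGTG is another. Both were searched on both strands in RefSeq promoter windows from 250 bases before to 50 bases after the start (GRCm38.p6). Of 32851 windows, 6447 (19.6%) held ACGTG and 10639 (32.4%) held GCGTG. A window was given for 7 of the 10 genes, with 9 windows in all, so the shares above count windows and not genes. The motif ACGTG was held by 5 of the 7 genes, each in a single window: Car9, Car6, Car14, Car4 and Car10. The motif is in capitals below, written along the strand of the gene, so CACGT is ACGTG on the opposite strand, and in Car6 both strands read it in overlap as CACGTG.
Car9: ctatttccgatgCACGTacagcccgtcca
Car6: gaggaggtgaggCACGTGcacaggcaccaa
Car14: cacccccctcctCACGTacaccggtttcg
Car4: ggagccgactccCACGTctagccgtccgg
Car10: gccgccccgctgACGTGgggactccgggc

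The Car9 stretch lies at chr4:43506996-43507024 on the plus strand, with the motif 18 to 14 bases before the RefSeq start. That of Car6 is at chr4:150201267-150201296 on the minus strand, 149 to 144 bases before the start, and that of Car14 at chr3:95904676-95904704 on the minus strand, 7 to 3 bases before it. In Car4, at chr11:84957744-84957772 on the plus strand, the motif covers bases 3 to 7 after the start, and in Car10 it lies 145 to 141 bases before a second start, at chr11:93099133-93099161 on the plus strand. In the GENCODE vM21 models the Car9 and Car6 stretches are in noncoding parts of an exon, the Car14 stretch spans the gene's outer end, the Car10 stretch is intronic and the Car4 stretch is outside the gene. Car11 and Car12 had windows without ACGTG, while GCGTG was found in windows of Car11 and Car6. A match describes the letters only. Of the 5 genes that hold ACGTG 2 (Car9 and Car6) were called higher in RVO than in control eyes, and Car4 was not tested. Over all tested genes 2.70% were called higher. Car9 and Car6 were the only members called, and the members were chosen with earlier results of these data known. These shares thus cannot link the motif to the calls, and such a link was not tested.

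Untreated retina was dominated by Car2, the fast cytosolic enzyme that marks Müller cells in the retina (chromosome 3, 14886273 to 14900770). Per length it had 261 ± 2.38 CPM per kb (SD, n = 3), which was 72.5% of the summed level of the 10 genes. Car14, a membrane-bound enzyme of Müller cells and pigment epithelium (chromosome 3, 95897768 to 95904691), followed with 29.7 ± 1.88 CPM per kb, then the inactive relatives Car8 with 24.9 ± 1.32, Car10 with 21.2 ± 2.02 and Car11 with 17.8 ± 0.964 CPM per kb. The pools of neighbours in this order did not overlap down to Car11.

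The other 5 genes were far lower in untreated eyes. Car3, the slow cytosolic enzyme known from muscle and fat, had 2.77 ± 0.203 CPM per kb and Car12, a membrane-bound enzyme of secretory epithelia, had 2.19 ± 0.427 CPM per kb, and their pools overlapped. Car4, the lipid-anchored enzyme of capillary endothelium, had 0.402 ± 0.134 CPM per kb. Car6, known from saliva, and Car9 were near the limit of detection, with 0.0441 ± 0.00542 and 0.0376 ± 0.0395 CPM per kb, and overlapped.

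The summed level of the 10 genes was 360 ± 7.91 CPM per kb in untreated eyes, 245 ± 10.3 in control eyes and 160 ± 31.2 in RVO eyes (SD, n = 3 each). The groups did not overlap: untreated pools lay between 350.9 and 364.7, control pools between 236.3 and 256.1 and RVO pools between 131.9 and 193.4 CPM per kb. Car2 kept the greatest share, with 67.3% in control and 71.9% in RVO eyes. The share of Car9 was 0.0103% in untreated, 0.120% in control and 2.32% in RVO eyes, and that of Car6 was 0.0122%, 0.113% and 1.26%.

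**Figure D1:**
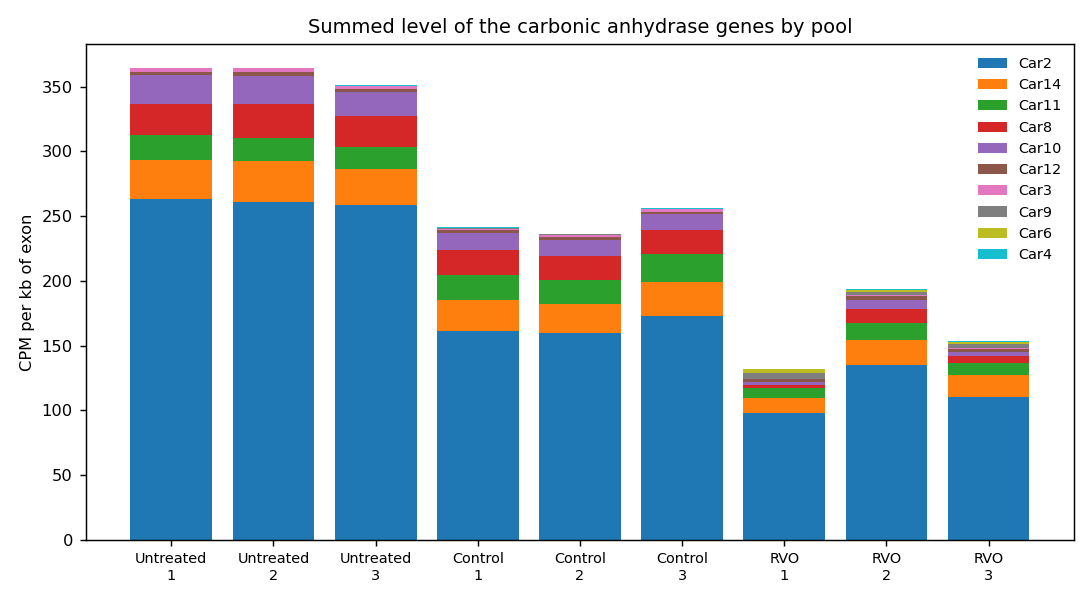
Summed level of the 10 carbonic anhydrase genes in CPM per kb of exon (y axis, from 0) in each of the 9 pools, stacked by gene. Car2 made up 72.5% of the mean sum in untreated eyes, and the sums did not overlap between groups, from 350.9 to 364.7 in untreated down to 131.9 to 193.4 in RVO eyes.

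The order per length changed with treatment. In control eyes Car11 (20.1 ± 1.49 CPM per kb) stood beside Car8 (18.9 ± 0.408) with overlapping pools and above Car10 (12.5 ± 0.396). In RVO eyes Car2 (114 ± 18.9 CPM per kb) was still separate, but from Car14 (16.03 ± 3.97) through Car11, Car8, Car10, Car9 and Car12 to Car6 (1.88 ± 0.709) each gene overlapped the next. Car9, last of 10 in untreated eyes, was sixth in RVO eyes with 3.48 ± 1.07 CPM per kb, beside Car12 with 2.59 ± 0.526. With the length of the longest transcript in place of all exons, Car8 and Car10 changed places in each group, Car9 and Car12 in RVO eyes, and Car4 moved from last to eighth in control eyes.

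The comparison of RVO with control eyes asks what vein closure added to the laser burns. Of the 10 genes, 9 had enough counts to be tested, and 2 of these rose, Car9 and Car6. Over all 16874 genes, 3.34% were called, 2.70% higher and 0.634% lower. At an adjusted p under 0.05 all 9 tested genes were past the threshold, 3 higher and 6 lower, where 34.6% of all genes were, 17.5% higher and 17.1% lower. The values of the pools did not overlap for 9 of the 10 genes, again 3 higher and 6 lower, where 52.5% of all tested genes did not overlap, 26.7% higher and 25.8% lower. The median log2 fold change of the 9 was -0.58, against 0.02 over all genes tested.

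Car9, a transmembrane enzyme that acidifies the outside of hypoxic cells (chromosome 4, 43506966 to 43513729), had 10.7, 5.82 and 7.56 CPM in the RVO pools, from 335, 137 and 172 counts. It had 0.678, 0.758 and 0.586 CPM in the control pools, from 14 or 15 counts each. The lowest RVO pool, replicate 2, was still far above the highest control pool. The fold change was 11.95, or 3.58 on the log2 scale (SE 0.29, edgeR's Benjamini-Hochberg adjusted p = 0.00455). Its exons share 214 bases with the antisense gene Gm12454, which had 0 to 8 counts per pool, and the sources used here do not state whether counting used the strand.

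Car6 (chromosome 4, 150187015 to 150201332) had 4.91, 2.72 and 2.64 CPM in RVO pools and 0.543, 0.455 and 0.502 CPM in control pools, where it had 9 to 12 counts. Replicate 1 stood above the other RVO pools, and all 3 lay above the controls. The difference was 6.85-fold (log2 fold change 2.78, SE 0.34, edgeR's Benjamini-Hochberg adjusted p = 0.00731).

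Both calls were lost when single pools were left out, as were nearly all calls of the whole table: 0 genes were called without RVO replicate 3, 1 without control replicate 1, 0 without control replicate 2 or 3 and 29 without RVO replicate 1 (edgeR), where 6100 to 6916 genes had an unadjusted p under 0.05. That of Car9 was lost without RVO replicate 3 (edgeR's adjusted p = 0.0265) and without control replicate 1, 2 or 3 (0.0303, 0.0155 and 0.0361), with log2 fold changes between 3.48 and 3.66. That of Car6 was lost without RVO replicate 1 or 3 (edgeR's adjusted p = 0.0101 and 0.0374) and without control replicate 1, 2 or 3 (0.0449, 0.0235 and 0.0538), with log2 fold changes between 2.40 and 2.92. Leaving out RVO replicate 2 instead gave 8 calls, Car9 and Car6 higher and Car2, Car3, Car8, Car10, Car11 and Car14 lower, with 6257 calls over all genes (36.4%). Leaving out RVO replicate 1 gave 1 call, that of Car9.

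Car12 (chromosome 9, 66713686 to 66766845), like Car9 a hypoxia-responsive enzyme of the cell surface, had 15.6, 23.6 and 19.8 CPM in RVO pools and 13.3, 14.5 and 13.9 CPM in control pools. The RVO pools were all above the controls, the nearest by little, and the log2 fold change of 0.50 (SE 0.15, edgeR's adjusted p = 0.0386) missed the threshold. Car4 (chromosome 11, 84957786 to 84966044) had 5 to 23 counts per RVO pool and 8 to 19 per control pool and was not tested. Its values overlapped, and replicate 3 was the highest pool of both groups, with 1.01 CPM after RVO and 0.795 CPM after the control laser.

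**Figure D2:**
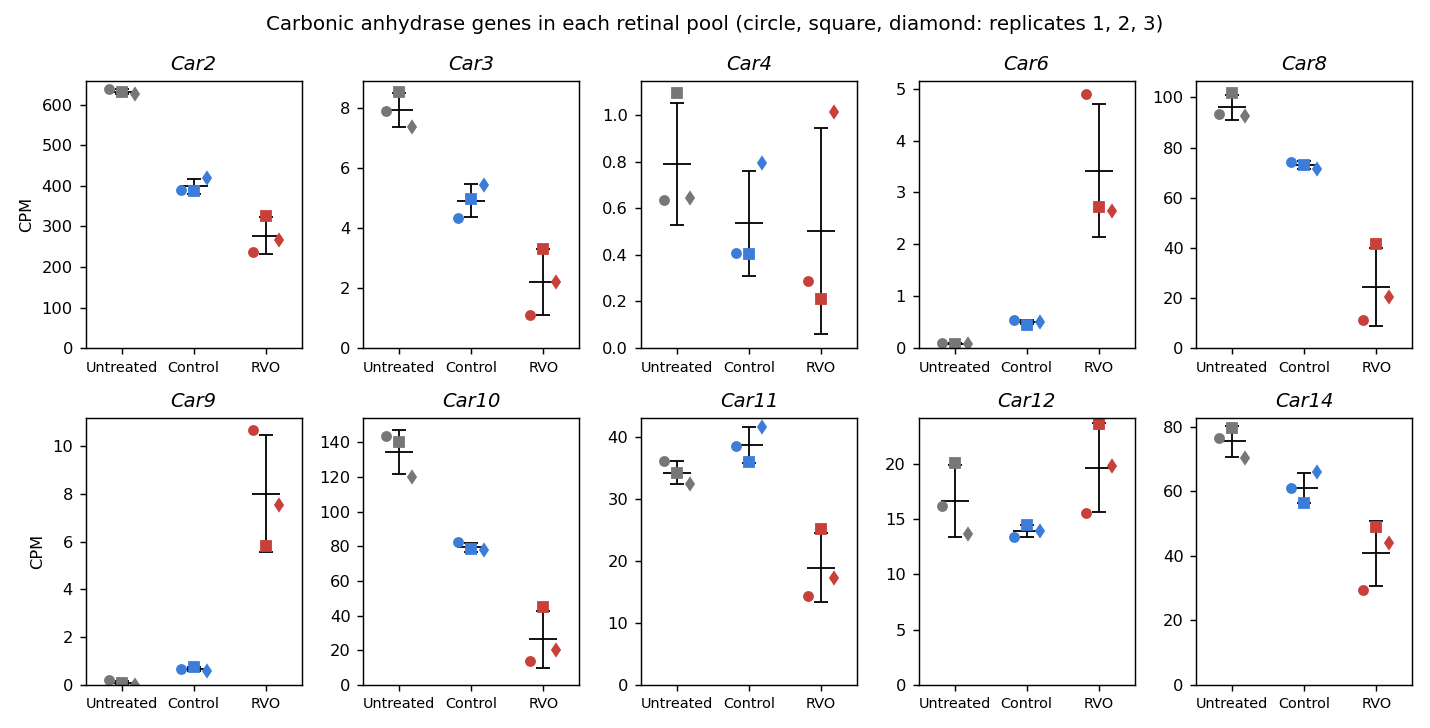
CPM (y axes, each from 0) of the 10 carbonic anhydrase genes in every pool of untreated, control and RVO eyes. Circles, squares and diamonds are replicates 1, 2 and 3, and bars are the mean ± SD of 3 pools. RVO replicate 2, the square, was the RVO pool closest to control eyes for Car2, Car3, Car8, Car10, Car11 and Car14.

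The remaining 6 genes had lower values in all 3 RVO pools than in any control pool, and none passed the threshold. Their adjusted p-values in edgeR's test ran from 0.0122 for Car11 to 0.0369 for Car3. The log2 fold changes were -0.52 for Car2 (SE 0.11), -0.58 for Car14 (SE 0.17), -1.04 for Car11 (SE 0.19), -1.17 for Car3 (SE 0.35), -1.59 for Car8 (SE 0.40) and -1.60 for Car10 (SE 0.38). The 3 largest SE belonged to the genes whose RVO pools were most spread relative to their mean.

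The comparison of RVO with untreated eyes takes in the burns and the closed veins, and also the dye, the anesthesia and the difference between mice. All 10 genes were tested and 8 were called, 6 of them lower and Car9 and Car6 higher, where 52.1% of 16380 tested genes were called, 27.4% higher and 24.6% lower. With scaling by library size only, 2 were called higher and 5 lower, and the higher share of all calls was 68.5% in place of 52.7%. The pools did not overlap for 8 of 10, where 73.4% of all tested genes did not overlap. The median log2 fold change of the 10 was -0.84 against 0.01 over all genes, and it was the same with Car9 and Car6 set to their bounds.

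Car9 had 2, 1 and 0 counts in untreated pools and Car6 had 1 in each. Both passed the filter on low counts through the RVO pools, so that their calls carry no weight of their own, and only a lower bound is given, computed against 3 counts in each untreated pool. Car9 was at least 33.4-fold higher in RVO eyes and Car6 at least 14.2-fold.

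Car2 had 638, 632 and 627 CPM in untreated pools and 237, 327 and 267 CPM in RVO pools. Every RVO pool was well below every untreated pool, and the level fell to 44.7% of untreated (log2 fold change -1.16, SE 0.11, edgeR's adjusted p = 6.65e-05). Car14 had 76.6, 79.7 and 70.3 CPM in untreated pools and 29.5, 49.0 and 43.8 CPM in RVO pools, and it fell to 55.1% (log2 fold change -0.86, SE 0.17, edgeR's adjusted p = 0.00238). Its call was lost without untreated replicate 1 or 2 (edgeR's adjusted p = 0.0121 and 0.0124). Aph1a overlaps 445 bases of its exons on the other strand and had 5.54 to 9.19 CPM.

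Müller cell markers were lower in the same pools. The summed level of the 7 was 4327 to 4568 CPM in untreated, 2529 to 3171 in control and 1593 to 2264 CPM in RVO pools, which was 42.5% of untreated in RVO eyes beside 43.8% for Car2 and 54.0% for Car14. Glul, glutamine synthetase and the most abundant of them, was 2505 to 2677 CPM in untreated and 580 to 748 CPM in RVO pools. Of the 7 markers 4 fell, with none at 0, where 24.6% of all tested genes fell. The sum rested on Glul: without it, a sum computed after seeing the values, the other 6 markers were at 66.7% of untreated in RVO eyes, and Kcnj10 and Apoe overlapped untreated pools. The part of these markers in the values of Car2 and Car14 was not tested.

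**Figure D3:**
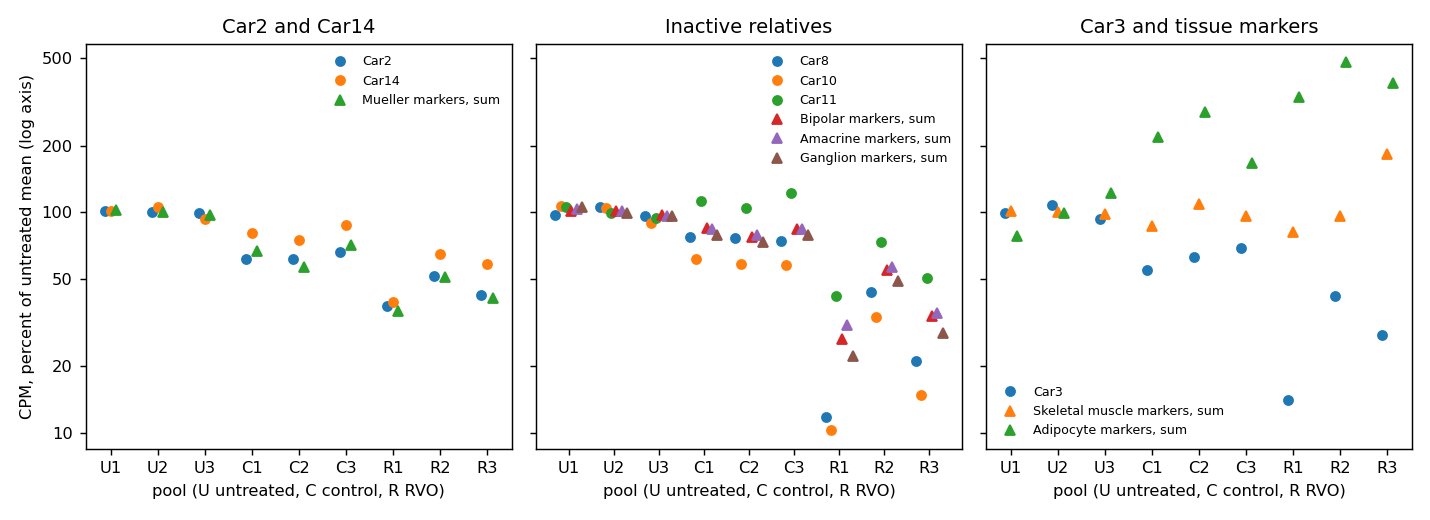
CPM as percent of the untreated mean (y axis, log scale) in each pool (U untreated, C control, R RVO, replicates 1 to 3) for single genes (circles) and summed marker lists (triangles). Left, Car2 and Car14 with Müller cell markers, where Car2 was at 37.5% to 51.7% and the markers at 35.7% to 50.8% in RVO pools. Middle, Car8, Car10 and Car11 with bipolar, amacrine and ganglion cell markers, where Car8 and Car10 lay under the marker sums in RVO replicates 1 to 3. Right, Car3 with muscle and adipocyte markers, where the muscle sum was above 100% in RVO replicate 3 and below it in replicates 1 and 2.

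The inactive relatives included the genes that fell furthest. Car10, a secreted partner of neurexins at synapses (chromosome 11, 93098028 to 93601749), had 144, 140 and 119.8 CPM in untreated pools and 13.8, 45.0 and 20.1 CPM in RVO pools. RVO replicate 1 was the lowest and replicate 2 the highest, and the level fell to 19.9% of untreated (log2 fold change -2.33, SE 0.38, edgeR's adjusted p = 0.000872). This call was kept without any one of the 6 pools.

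Car8, which binds the inositol trisphosphate receptor and is known from Purkinje cells (chromosome 4, 8143362 to 8239041), had 93.4, 101.9 and 92.8 CPM in untreated pools and 11.3, 41.6 and 20.3 CPM in RVO pools. The pools were ranked as for Car10, and Car8 fell to 25.8% of untreated (log2 fold change -1.95, SE 0.39, edgeR's adjusted p = 0.00254). The call was lost without RVO replicate 3 (edgeR's adjusted p = 0.0142) and without untreated replicate 1, 2 or 3 (0.0113, 0.0111 and 0.0107).

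Car11, also a neurexin partner (chromosome 7, 45699843 to 45704682), had 36.1, 34.2 and 32.4 CPM in untreated and 14.3, 25.1 and 17.3 CPM in RVO pools. The order of the RVO pools was again the same, and Car11 fell to 56.3% (log2 fold change -0.83, SE 0.19, edgeR's adjusted p = 0.00481). The call was lost without RVO replicate 3 (edgeR's adjusted p = 0.0233), without untreated replicate 1, 2 or 3 (0.0224, 0.0184 and 0.0153) and with scaling by library size only (0.0144).

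Markers of inner retinal neurons were lower as well. Summed over the list, bipolar markers were at 38.4%, amacrine markers at 40.8% and ganglion cell markers at 33.2% of untreated in RVO eyes. None of their genes was at 0, and 6 of 8, 6 of 7 and 6 of 6 genes fell, where 24.6% of all tested genes did. By edgeR's fold change the single markers ran from 17.7% of untreated for Vsx1 to 88.6% for Gng13. The mean level relative to untreated was 25.4% for Car8, 19.5% for Car10 and 55.2% for Car11. The part of these markers in the values of the inactive relatives was not tested.

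Car3 (chromosome 3, 14863512 to 14872523) had 7.90, 8.52 and 7.36 CPM in untreated and 1.12, 3.31 and 2.20 CPM in RVO pools. The groups were well apart, and Car3 fell to 28.1% of untreated (log2 fold change -1.83, SE 0.34, edgeR's adjusted p = 0.00172). The 10 skeletal muscle markers summed to a median of 9.22 CPM in untreated and 7.46 to 16.9 CPM in RVO pools, and 0 of the 5 that could be tested were called. The RVO sums were below every untreated pool in replicates 1 and 2 and above them in replicate 3. Of the 6 adipocyte markers only Plin4 had enough counts to be tested, and the defining genes Adipoq, Cidec, Lep and Cfd had at most 3 counts in any pool. Plin4 rose in RVO against untreated eyes (log2 fold change 2.16, SE 0.22, edgeR's adjusted p = 9.13e-05), in the other direction from Car3.

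Car12 had 16.2, 20.1 and 13.6 CPM in untreated pools, which overlapped the RVO pools, with a log2 fold change of 0.27 (SE 0.19, edgeR's adjusted p = 0.233). Car4 had 0.636, 1.09 and 0.643 CPM in untreated and 0.287, 0.212 and 1.01 CPM in RVO pools, which overlapped (log2 fold change -0.67, SE 0.60, edgeR's adjusted p = 0.352). With 5 to 23 counts per RVO pool, a change of this size was not detectable for Car4. The 11 pigment epithelium markers, of which 1 rose and 1 fell, summed to 654 to 708 CPM in untreated and 523 to 1065 CPM in RVO pools, and the 9 endothelial markers, of which 4 rose, summed to 170 to 174 and 161 to 279 CPM. The endothelial sum was highest in control pools, at 326 to 363 CPM. Against untreated eyes 7 of the 9 genes rose there, where 27.2% of all tested genes rose. Most of the sum was Kdr, with means of 128 CPM in untreated, 254 in control and 148 CPM in RVO eyes. Egfl7 was higher in RVO pools (13.85 to 17.91 CPM) than in control pools (11.05 to 11.77 CPM). Pecam1, Cdh5 and Emcn overlapped between RVO and control pools.

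**Figure D4:**
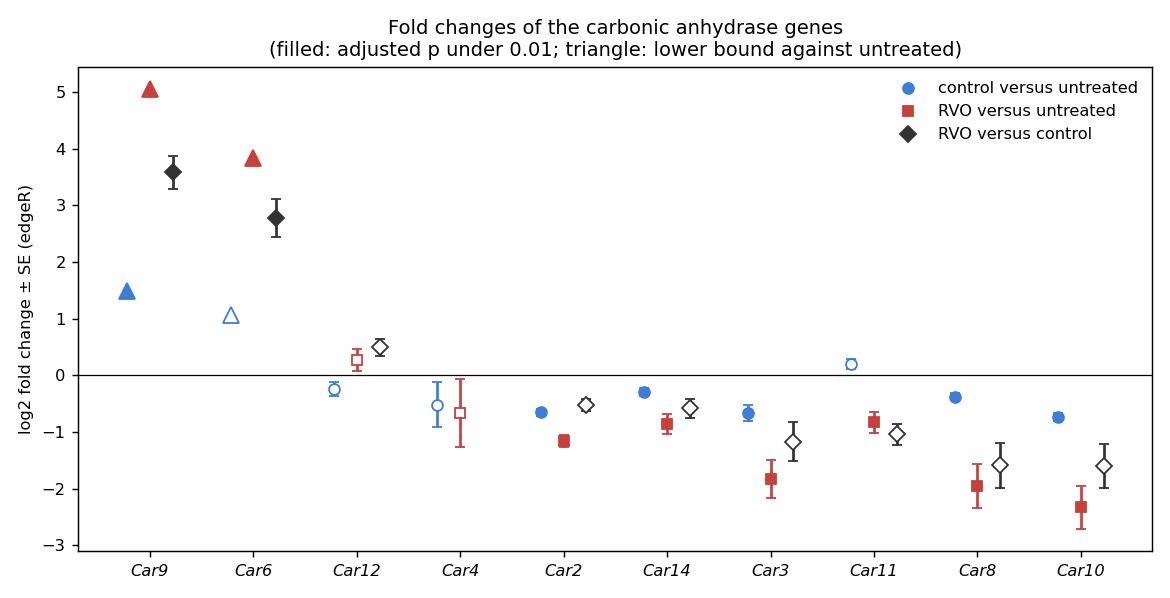
Log2 fold changes ± SE from edgeR (y axis) of the 10 genes in the 3 comparisons, with filled symbols at an adjusted p under 0.01. Triangles are lower bounds computed against 3 counts per untreated pool, the open triangle of Car6 was not tested, and the genes with filled triangles passed the filter on low counts through the laser-treated pools. Filled symbols above 0 belong to Car9 and Car6, and filled symbols below 0 to Car2, Car14, Car3, Car11, Car8 and Car10.

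The comparison of control with untreated eyes takes in the laser treatment without vein closure in the same eye. It also takes in the dye, the anesthesia, the closed veins of the fellow eye and the difference between mice. These cannot be told apart here. Here 9 of the 10 genes were tested and 6 were called, 5 of them lower and Car9 higher, where 52.4% of 16066 tested genes were called, 27.2% higher and 25.2% lower. With scaling by library size only, 2 were called higher and 4 lower, and the higher share of all calls was 70.4% in place of 51.9%. The pools did not overlap for 7 of 10 genes, where 70.0% of all tested genes did not. The median log2 fold change was -0.38 against 0.01 over all genes. Both comparisons with untreated eyes use the same 3 untreated pools.

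In control eyes the bound for Car9 was at least 2.80-fold higher, from 14 or 15 counts against 0 to 2. It passed the filter through the control pools, so its call carries no weight of its own. Car6 was too low to be tested, with 9 to 12 counts in control pools against 1 in each untreated pool, and was at least 2.08-fold higher.

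Car2 had 390, 387 and 419 CPM in control pools, well under the 627 to 638 CPM of untreated pools. It fell to 63.9% (log2 fold change -0.65, SE 0.06, edgeR's adjusted p = 8.83e-07). Car10 had 82.3, 78.4 and 77.6 CPM and fell to 59.9% (log2 fold change -0.74, SE 0.07, edgeR's adjusted p = 1.3e-06), and Car3 had 4.34, 4.95 and 5.44 CPM and fell to 62.9% (log2 fold change -0.67, SE 0.14, edgeR's adjusted p = 0.000952).

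Car8 and Car14 were nearer to untreated eyes. Car8 had 74.4, 73.1 and 71.3 CPM and fell to 76.9% (log2 fold change -0.38, SE 0.06, edgeR's adjusted p = 6.14e-05). Car14 had 60.9, 56.4 and 65.9 CPM and fell to 82.0% (log2 fold change -0.29, SE 0.07, edgeR's adjusted p = 0.00263), a call that was lost without control replicate 2 or untreated replicate 2 (edgeR's adjusted p = 0.0123 and 0.0192) and with scaling by library size only (-0.11, adjusted p = 0.157). In 1 fit over all 9 pools, which let the spread of the RVO pools into the test, the calls of Car3, Car8, Car10 and Car14 were lost (edgeR's adjusted p = 0.0657, 0.335, 0.065 and 0.118).

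Car11 had 38.5, 36.0 and 41.7 CPM in control pools, which reached above the untreated pools and overlapped them. Its log2 fold change of 0.20 (SE 0.08, edgeR's adjusted p = 0.0374) missed the threshold, and it was 0.37 with scaling by library size only (adjusted p = 0.000767), where the median of all genes moved to 0.19. Car12 (log2 fold change -0.24, SE 0.13, edgeR's adjusted p = 0.114) and Car4 (-0.52, SE 0.40, edgeR's adjusted p = 0.268) overlapped untreated pools. In control eyes the Müller markers summed to 64.9% of untreated beside 63.0% for Car2, but to 88.2% without Glul, and 1 of the 7, Kcnj10, rose while 4 fell. Bipolar, amacrine and ganglion cell markers summed to 81.9%, 82.2% and 77.1% of untreated, beside 76.0% for Car8, 59.1% for Car10 and 113% for Car11. Of these markers 2, 1 and 0 genes rose and 3, 4 and 5 fell. Over all tested genes 27.2% rose and 25.2% fell.

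Erythroid, myeloid and adipocyte marker sums, like Car9 and Car6, did not overlap between the 3 groups and were highest in RVO eyes. Adipocyte markers, mostly Plin4, summed to 1.725 to 2.714 CPM in untreated, 3.682 to 6.316 in control and 7.36 to 10.57 CPM in RVO pools. Erythroid markers summed to 14.6 to 15.1 CPM in untreated, 28.6 to 31.2 in control and 49.7 to 196.5 CPM in RVO pools. Of 5 tested genes 2 were called higher in RVO than in untreated eyes, where 27.4% of all tested genes were. Hbb-bs was the largest, with means of 6.81 CPM in untreated, 17.9 in control and 75.2 CPM in RVO eyes. Hba-a1 and Hba-a2 overlapped between control and untreated pools, Hbb-bt between RVO and control pools, and Alas2 in all 3 comparisons. Myeloid markers summed to 45.4 to 65.9, 74.7 to 93.6 and 135.5 to 150.6 CPM, and against untreated eyes 5 of the 7 genes rose after RVO and 1, Csf1r, fell. In RVO replicates 1, 2 and 3 the erythroid sums were 196.5, 49.7 and 79.2 CPM, ranked as Car9 was. The myeloid sums there were 137.8, 135.5 and 150.6 CPM, highest in replicate 3. Lens markers summed to 2.36 to 18.5 CPM in untreated pools and overlapped between control pools, at 135 to 1889 CPM, and RVO pools, where replicate 1 with the most Car9 and Car6 had the lowest sum, 121 CPM, and replicate 2 the highest, 3359 CPM. The part of these in the values of Car9 and Car6 was not tested.

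The 8 other genes of the family included 6 with enough counts to be tested, of which 0 were called between RVO and control eyes in edgeR's test, 3 had an unadjusted p under 0.05 and 2 were called by DESeq2. At edgeR's adjusted p under 0.05 there were 2, Car13 higher and Ptprz1 lower. Over all genes, 7940 of 16874 had an unadjusted p under 0.05, 23.9% were called by DESeq2 and 34.6% had an edgeR adjusted p under 0.05. Against untreated eyes 1 rose and 2 fell in each comparison, 3 of the 6 tested, where 52.1% (RVO) and 52.4% (control) of all genes were called. Car13, a cytosolic enzyme, had 0.435 ± 0.175 CPM in untreated, 0.907 ± 0.179 in control and 1.93 ± 0.162 CPM in RVO eyes (SD, n = 3). It was called higher in RVO against untreated eyes (log2 fold change 2.20, SE 0.31, edgeR's adjusted p = 4.33e-04). With 7, 4 and 5 counts in untreated pools, it passed the filter on low counts through the RVO pools, so this call carries no weight of its own. Car5b, a mitochondrial enzyme, rose in control eyes (log2 fold change 0.72, SE 0.13, edgeR's adjusted p = 2.68e-04) and had a log2 fold change of 0.11 in RVO eyes (adjusted p = 0.695).

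Ptprz1, a receptor phosphatase of glia with a carbonic anhydrase-like outer domain, had 56.3 ± 3.93 CPM in untreated, 34.5 ± 3.84 in control and 15.1 ± 6.95 CPM in RVO eyes. It fell against untreated eyes in RVO (log2 fold change -1.87, SE 0.27, edgeR's adjusted p = 5.19e-04) and in control eyes (-0.68, SE 0.08, edgeR's adjusted p = 1.51e-05), as did its relative Ptprg (-0.44 and -0.32, adjusted p = 0.00205 and 0.00271). Car7, a cytosolic enzyme of neurons, had log2 fold changes of 0.06 and 0.37 and was not called. Car15, an enzyme with a lipid anchor, had -1.51 in RVO eyes (edgeR's adjusted p = 0.0142), and it shares 1253 bases of exon with Gm20518 on the same strand. Car1 and Car5a had at most 5 and 2 counts and were not tested.

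Carbonic anhydrases work together with transporters of bicarbonate, protons and lactate. Of 21 such genes, 17 were tested. Between RVO and control eyes 0 were called in edgeR's test and 6 by DESeq2, where 3.34% and 23.9% of all genes were. An unadjusted p under 0.05 was found for 12, and for 7940 of all 16874 genes. An edgeR adjusted p under 0.05 was found for 9, 3 higher and 6 lower, and for 34.6% of all genes. Against untreated eyes 6 rose and 7 fell in RVO and 6 rose and 5 fell in control eyes, 13 and 11 of the 17 tested, where 52.1% and 52.4% of all genes were called, with medians of -0.33 and -0.12. Slc16a3, the lactate exporter of glycolytic cells and itself a hypoxia target, had 19.6 ± 3.82 CPM in untreated, 57.0 ± 10.7 in control and 102 ± 27.3 CPM in RVO eyes, and rose in both comparisons (log2 fold change 2.41 and 1.55, edgeR's adjusted p = 6.22e-05 and 1.74e-06).

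Its chaperone Bsg rose in RVO against untreated eyes (log2 fold change 0.48, edgeR's adjusted p = 0.000506) and had 0.20 in control eyes (adjusted p = 0.0195). The bicarbonate transporter Slc4a10 of neurons (log2 fold change -2.13), the lactate importer Slc16a7 (-1.97) and the chaperone Emb (-1.31) were the genes that fell furthest in RVO eyes. In control eyes the lactate transporter Slc16a8 of pigment epithelium rose (1.24), and the bicarbonate transporter Slc4a7 (-0.93) and Slc16a7 (-0.84) fell.

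Car9 and Car12 were set beside 20 genes known to be induced by hypoxia, a list without carbonic anhydrases that was chosen with results of these data known. All 20 had a log2 fold change above 0 between RVO and control eyes, also with the other scalings. Their median was 0.67 against 0.02 over all genes, and the lowest value was 0.03 for Pfkfb4. Of the 20, 6 rose, where 2.70% of all tested genes were called higher. Of those that rose, the 4 with the largest values were Adm (3.08, SE 0.27), a vasodilator peptide, Ndufa4l2 (2.48, SE 0.30), a mitochondrial protein, Egln3 (2.18, SE 0.27), an oxygen sensor, and Vegfa (1.14, SE 0.18), the vascular growth factor. Vegfa was close to the threshold (edgeR's adjusted p = 0.00989). With DESeq2's size factors or a filter of 1 CPM in 3 pools 4 of the 20 were called, where 2.37% and 2.50% of all genes were. With scaling by library size only 7 were called, and 5.29% of all genes. Car9, at 3.58 (SE 0.29), was above all 20, with its value ± SE overlapping that of Adm, and Car12, at 0.50 (SE 0.15), was below the median of the list.

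The number of the 20 that rose was 12 without RVO replicate 2, 2 without RVO replicate 1, and 0 without RVO replicate 3 or any one control replicate. Over all genes these settings called 36.4%, 0.169% and at most 1 gene. Against untreated eyes 13 of the 20 rose and 0 fell in RVO eyes, where 27.4% of all tested genes rose and 24.6% fell. Adm was at 5.01, Ndufa4l2 at 3.46, Egln3 at 2.31 and Pgk1, a glycolytic enzyme, at 1.93. In control eyes 7 rose and 5 fell, with a median of 0.09, where 27.2% of all tested genes rose and 25.2% fell. The largest values there were 1.92 for Adm, 1.25 for Pgk1, 0.98 for the stress gene Ddit4 and 0.97 for Ndufa4l2.

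**Figure D5:**
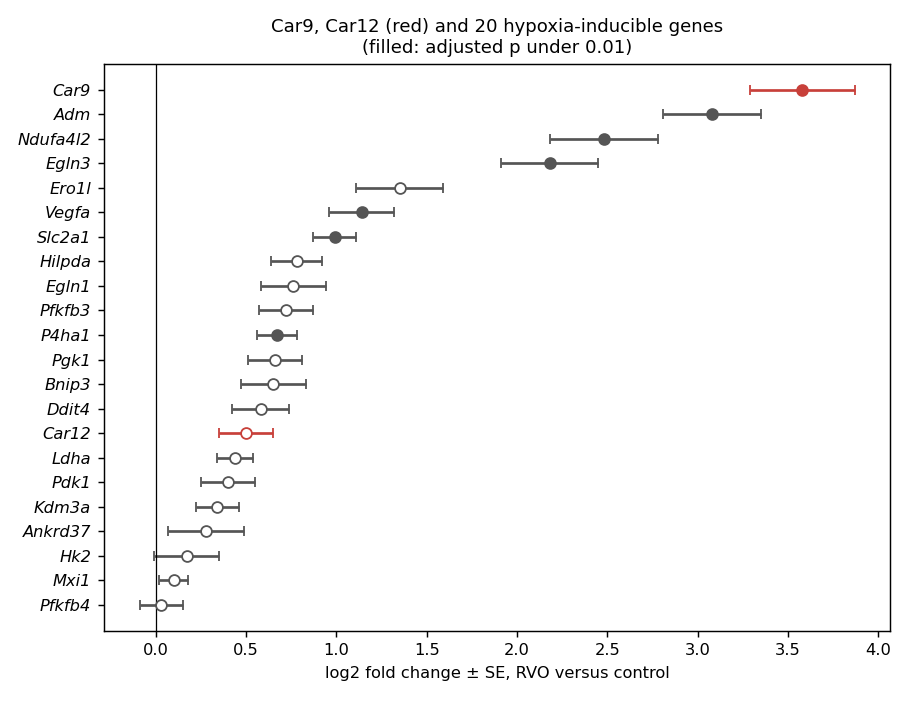
Log2 fold change ± SE between RVO and control eyes (x axis) for Car9 and Car12 (red) and 20 hypoxia-inducible genes, in order of size, with filled symbols at an adjusted p under 0.01. Car9 is at the top with 3.58, next to Adm with 3.08, and Car12 is in the lower part with 0.50.

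The genes whose pattern was most like that of Car9, Car14 and Car2 were sought by the root mean square difference of centred log2 CPM over the 9 pools among 15851 genes. For Car2 these were Slmap (0.05), Chn1 (0.06) and Fam171b (0.06), and for Car14 Pfn2 (0.09), Marcks (0.09) and Fam65b (0.10). Fam171b, for example, had 494 ± 16.2 CPM in untreated, 328 ± 6.92 in control and 227 ± 40.9 CPM in RVO eyes. Genes near to Car9 were less close, among them the complement gene C3 (0.50) and the steroid enzyme Hsd17b2 (0.58). C3 had 3.18 ± 0.197 CPM in untreated, 20.1 ± 1.07 in control and 121.6 ± 42.5 CPM in RVO eyes, and Hsd17b2 had 0.953 ± 0.0808, 8.55 ± 1.04 and 46.0 ± 10.5 CPM. All these values come from the same 9 pools and share their depth and composition.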

How the data were processed

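The authors aligned single reads to the mouse genome, build GRCm38, with STAR 2.5.2b, assigned them to genes of Gencode vM11 with featureCounts of Subread 1.5.1, and deposited raw counts by gene symbol. The library kit marked strands. The strand setting and the treatment of reads matching several genes are not given in the sources used here. Of 48679 names, 92 were spike-in controls with 0 counts, which were left out. The number of columns not used was 0.

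Pools were grouped by their labels. Each pair of groups had its own fit, in which counts were filtered with filterByExpr, scaled by TMM and tested with edgeR 4.0.16 (R 4.3.3), with Benjamini-Hochberg adjustment over all tested genes. DESeq2 1.42.0 was an alternative. Scripts were tested on simulated data. CPM used TMM factors over all 9 pools. Exon lengths and positions came from GENCODE vM21 on GRCm38. Where each pool of a group had at most 3 counts, a lower bound against 3 counts per pool was given. Such bounds cover counting error only, and replicates cover differences between pools.

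The members and lists were chosen with earlier results of these data known. Genes named are the family, Slc16a3 and Bsg, up to 4 called genes per list and comparison with the largest change, and the 3 genes of most similar pattern, of which 1 is not reported here. Endothelial, glial, neuronal, blood, lens, muscle, fat and pigment markers were compared by their sums. Cone markers summed to 39.2% and 70.6% and rod markers to 53.7% and 71.2% of untreated in RVO and control eyes.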

Additional observations from a re-analysis of the deposited data

How the results depend on the processing

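The number of carbonic anhydrases called between RVO and control eyes was 2, and it was 6 without a filter on low counts, 7 with DESeq2's Wald test, 6 in 1 fit of all 9 pools, 9 at an adjusted p under 0.05 and 0 to 8 with a pool left out. For transport genes it was 0, and 4, 6, 4, 9 and 0 to 8 under these settings, and for hypoxia-inducible genes 6, and 12, 14, 13, 14 and 0 to 12. Without RVO replicate 2, 8 transport genes were called. Over all genes these settings called 11.1%, 23.9%, 22.5%, 34.6% and 0 to 6257 genes (36.4%), in place of 3.34%.

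Same-numbered pools of RVO and control eyes correlated with r of -0.13, -0.15 and 0.07 in their deviations from the group means, so the numbers were not taken to pair the pools. With the replicate block, 0 carbonic anhydrases, 0 hypoxia-inducible genes and 0 of all genes were called between RVO and control eyes, with 7227 genes at an unadjusted p under 0.05, and Car9 and Car6 each had an edgeR adjusted p of 0.0314.

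Against untreated eyes, leaving out a pool gave 5 to 8 carbonic anhydrases in RVO eyes, with 5 without untreated replicate 1 or 2, and 4 to 6 in control eyes, where 1 fit of all 9 pools gave 3. The ranges were 11 to 15 and 11 to 12 for transport genes and 10 to 15 and 8 to 12 for hypoxia-inducible genes. With the longest transcript as length, the summed level was 217.9 CPM per kb in RVO, 333.6 in control and 494.6 in untreated eyes, and with library size only it was 325.5 in untreated eyes. Library size only moved the all-gene median on the log2 scale to 0.22 and 0.19 against untreated eyes. Of 357 alternative fold changes of single genes, 308 stayed on their side of the threshold, 29 lost and 20 gained the call, and 0 changed sign. The causes were not tested. Depth limits Car4 in every group and Car6 and Car9 in untreated eyes.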
